A study of Homo sapiens with 18 samples.

Results

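HT-29 iZEB1 cells that had received both doxycycline (DOX) and RepSox were compared with the same cells given neither, to ask what the treatments together leave changed from the starting state. The comparison was defined by its labels and was chosen with earlier results of these data known. It rests on 6 of the 18 libraries of the series, 3 for each condition, and takes in the 16978 genes with enough counts out of 60642 gene symbols. HT-29 iZEB1 is the human colorectal cancer line HT-29 carrying a ZEB1 gene that DOX switches on. The cells labelled as DOX with RepSox had DOX at 1 µg per ml together with RepSox at 10 µM for 24 h, and the untreated cells had no DOX and the vehicle DMSO. The treatment protocol in the labels gives 24 h of DOX, whereas the design text of the series gives 48 h. Libraries of HT-29 iZEB1 with RepSox and no DOX (RepSox alone), and with DOX and DMSO (DOX alone), 3 of each, were used to place the differences. All 12 HT-29 libraries carry the inducible gene, and the labels do not say whether the line is a single clone or whether replicates are separate cultures. The p-values therefore reflect the variation among these libraries alone, part or all of which could be technical. HT-29 cells that lack the inducible gene and were given DOX were not analysed here, so DOX itself and the induced gene cannot be told apart.

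Epithelial-mesenchymal transition (EMT) is a programme in which epithelial cells lose cell-cell junctions and take on mesenchymal traits. ZEB1 is a zinc-finger transcription factor of this programme that binds E-box sequences in the promoters of epithelial genes and represses them. TGF-β drives EMT in many epithelia: it binds a type II receptor, which activates the type I receptor ALK5 (the product of TGFBR1), and ALK5 phosphorylates SMAD2 and SMAD3, which then enter the nucleus and change transcription. RepSox is a small molecule that blocks the kinase activity of ALK5.

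The 6 libraries held 36.5 to 37.9 M counts. Levels are given as CPM, counts scaled to 1 M of the library size after TMM scaling, so that they compare a gene between libraries and not genes of different length. A gene was called when its adjusted p was below 0.05 (edgeR's quasi-likelihood test over the 12 HT-29 libraries, Benjamini-Hochberg adjustment over the 16978 genes). All fold changes and log2 values set the cells with DOX and RepSox over untreated cells unless another group is named, and errors of levels are SD with n = 3 libraries. Over the 12 HT-29 libraries, principal component 1 (49.7% of the variance) held the DOX with RepSox libraries at 24 to 26.8 and the untreated ones at 2.9 to 6, with RepSox alone at 32.8 to 34.1 and DOX alone at -63.8 to -61.6. Principal component 2 (13.7% of the variance) held the untreated libraries at 32.3 to 34.9 and those with DOX and RepSox at -20.9 to -13.7. RepSox alone lay at -7.8 to -7.6 there and DOX alone at -10 to -7.2. On principal component 3 (6.65% of the variance) replicate 1 of DOX with RepSox lay at 15.3, apart from replicates 2 and 3 at -18.3 and -26. Where leaving out replicate 1, or any other single library, moved a count of genes given here by over 1.5 times, the count without it stands beside it.

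Most markers of a colon epithelial line were counted in both groups. The 13 markers summed to 10230 to 11100 CPM with DOX and RepSox and to 9018 to 10180 CPM in untreated cells. KRT8 and KRT18 made up most of each sum, at 6546 and 2356 CPM with both agents and 5554 and 1716 CPM in untreated cells. Of the 13 markers 3 rose and 5 fell, where 12.6% and 13.6% of all genes tested did. EPCAM, KRT19, KRT20, CDH1 and VIL1 had lower means with both agents than in untreated cells. CDX1, CDX2 and GPA33, which are also markers of colon epithelium, stayed under 1 CPM in all 4 groups. All 10 fibroblast markers were under 1 CPM. The leukocyte markers other than LYZ and CD14, 9 of 11, and the endothelial markers other than ESAM and TEK, 7 of 9, were also under 1 CPM. In bulk libraries such as these, fewer cells with a transcript and less transcript per cell cannot be told apart.

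The induced gene was the first check of the labels. ZEB1 (chr10:31318495-31529814, plus strand, GRCh38) stood at 14.3, 15.6 and 17.1 CPM in the 3 libraries labelled DOX with RepSox, against 7.76, 7.23 and 10.2 CPM in untreated cells. It had 4.93, 5.25 and 5.58 CPM with RepSox alone and 366, 379.7 and 370.1 CPM with DOX alone. The groups did not overlap: ZEB1 mRNA was 1.87-fold higher with DOX and RepSox than in untreated cells (log2 0.90, SE 0.1, adjusted p = 3.11e-06), 2.98-fold higher than with RepSox alone (adjusted p = 1.37e-07) and 23.8-fold lower than with DOX alone (adjusted p = 4.02e-16). The libraries labelled DOX with RepSox thus differed from both groups without DOX but held far less ZEB1 mRNA than the other group labelled with DOX. The counts do not separate the inducible from the native ZEB1 gene, and each direction below rests on the labels as given.

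Between cells with DOX and RepSox and untreated cells, 4454 of 16978 genes were called (26.2%). Of these, 2144 were higher (12.6% of genes tested) and 2310 lower (13.6%) with DOX and RepSox. Most differences were small: 3131 of the calls (70.3%) were under 1.5-fold and the median called gene differed by 1.32-fold. At least a 2-fold difference was reached by 523 called genes (3.08%), 191 of them higher (1.12%) and 332 lower (1.96%). A test against a minimum change of 1.5-fold (edgeR's glmTreat) called 323 genes (1.9%), of which 99 were higher (0.583%) and 224 lower (1.32%). Without replicate 1 of DOX with RepSox the counts were 4916 called, 600 at least 2-fold and 345 past 1.5-fold. For 6576 genes (38.7%) the 3 libraries of one group all lay above the 3 of the other.

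**Figure D1:**
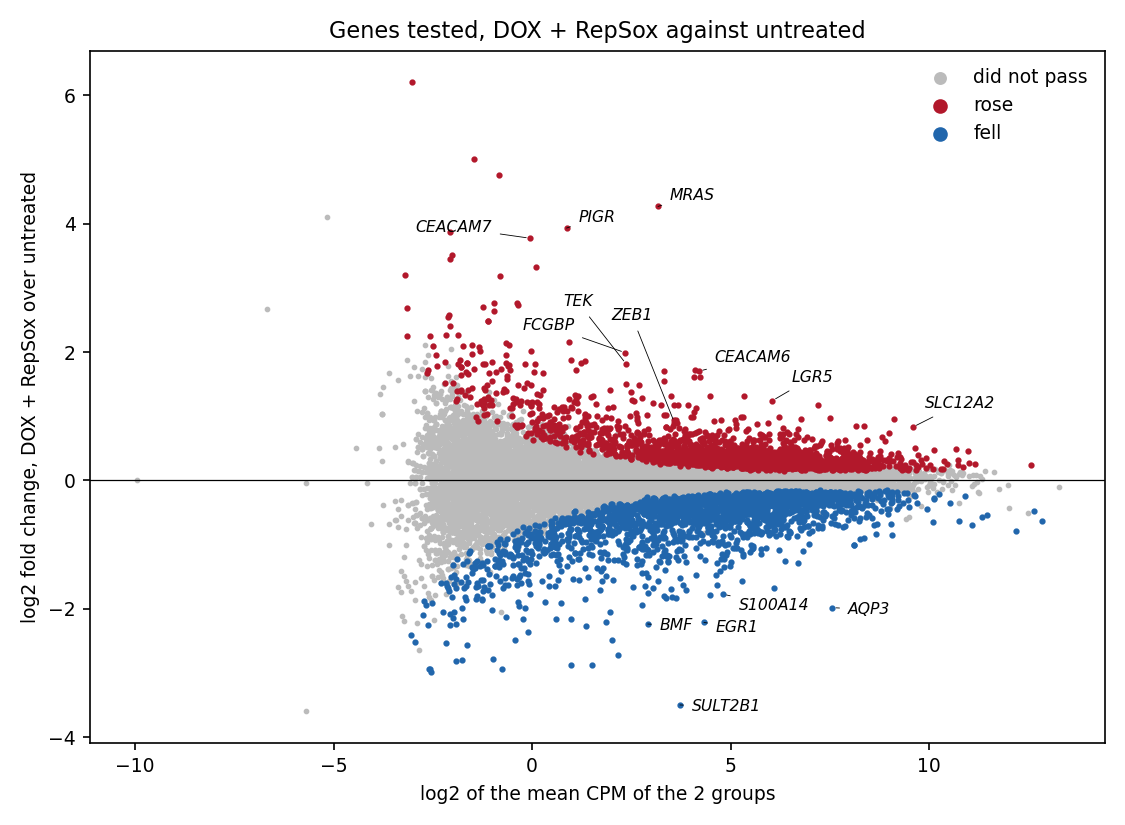
Each point is 1 of the 16978 genes tested, with the log2 of the mean CPM of both groups on the x axis (0.001 CPM added) and the log2 fold change of DOX with RepSox over untreated cells on the y axis. Called genes are coloured, 2144 higher and 2310 lower, and MRAS stands alone above the other well-counted genes at 4.27.

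The groups with a single treatment showed where these differences lie. Against DOX alone, DOX with RepSox differed in 8864 genes (52.2%), 4543 higher (26.8%) and 4321 lower (25.5%). Against RepSox alone it differed in 81 genes (0.477%), 16 higher (0.0942%) and 65 lower (0.383%), and 8 of the 81 were at least 2-fold (0.0471%). These comparisons share the DOX with RepSox libraries, so their values are set side by side and no agreement between them is computed. The count against RepSox alone depended on single libraries. It was 1670 without replicate 1 of DOX with RepSox, 27 without its replicate 2 and 41 without its replicate 3, and 36, 41 and 43 without replicates 1, 2 and 3 of RepSox alone. It was 294 with DESeq2. The share of higher genes among the calls, 19.8% with all libraries, moved too. Without replicates 1, 2 and 3 of DOX with RepSox, 663, 5 and 5 genes were higher (39.7%, 18.5% and 12.2% of the calls). Without replicates 1, 2 and 3 of RepSox alone, 6, 5 and 5 were higher (16.7%, 12.2% and 11.6%). The count of 8 was not redone in these fits.

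Of the called genes whose groups stood fully apart and whose higher mean reached 5 CPM, the largest rise was in MRAS, a small GTPase of the RAS family (chr3:138347648-138405534, plus strand, GRCh38). MRAS stood at 18.7, 16.5 and 16.3 CPM with DOX and RepSox, against 1.0, 0.803 and 0.856 CPM in untreated cells. Every library with both agents was far above every untreated library, a 19.3-fold difference (log2 4.27, SE 0.14, adjusted p = 8.82e-13). RepSox alone gave 16.2 ± 0.87 CPM and DOX alone 2.71 ± 0.43 CPM, so the level with both agents lay near that with RepSox alone (log2 0.08 against RepSox alone, 95% interval -0.13 to 0.30, adjusted p = 0.729).

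The other 11 of the 12 largest rises, under the same limits, ran from 2.66-fold to 3.97-fold. FCGBP, a mucus protein of intestinal goblet cells, had 8.15 ± 0.57 CPM with DOX and RepSox and 2.05 ± 0.29 CPM in untreated cells. TEK, a receptor for angiopoietins, had 8.08 ± 0.94 CPM with both agents and 2.3 ± 0.53 CPM in untreated cells. CSPG4, a cell-surface chondroitin sulfate proteoglycan, had 26.2 ± 2.7 CPM with both agents and 7.98 ± 1.4 CPM in untreated cells. CHST3, which transfers sulfate onto chondroitin, had 28.5 ± 3.5 CPM with both agents and 9.27 ± 0.32 CPM in untreated cells. The antisense transcript AC022075.1 had 15.2 ± 1.1 CPM with both agents and 4.67 ± 0.99 CPM in untreated cells, and since the strand setting of the counts is not given, reads of a gene on the other strand may be among them. These 5 genes were also above the untreated level with DOX alone, at 12.4 ± 0.39 CPM for FCGBP, 9.57 ± 0.39 CPM for TEK, 20.7 ± 2.8 CPM for CSPG4, 27.4 ± 2.1 CPM for CHST3 and 16.1 ± 1.5 CPM for AC022075.1. In the same order, RepSox alone gave 7.48, 8.14, 24.9, 23 and 12.4 CPM.

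The remaining 6 had means below the untreated level with DOX alone. CEACAM6, a cell-adhesion glycoprotein of colon epithelium (chr19:41750977-41772208, plus strand, GRCh38), stood at 26.9, 25.3 and 32.1 CPM with DOX and RepSox, against 8.68, 8.39 and 8.89 CPM in untreated cells, and at 1.97 ± 0.47 CPM with DOX alone. Its libraries did not overlap, which the ranking required, and the difference was 3.25-fold (adjusted p = 3.07e-09). CEACAM5, the carcinoembryonic antigen, had 14.9 ± 0.74 CPM with both agents and 5.1 ± 0.77 CPM in untreated cells. GABRP, a subunit of a GABA receptor, had 25.4 ± 0.56 CPM with both agents and 8.34 ± 0.55 CPM in untreated cells. ADH1C, an alcohol dehydrogenase, had 7.57 ± 0.34 CPM with both agents and 2.67 ± 0.11 CPM in untreated cells. The sulfotransferase CHST4 had 9.53 ± 1.7 CPM with both agents and 3.41 ± 0.26 CPM in untreated cells. With DOX alone the levels were 1.37 CPM for CEACAM5, 3.37 for GABRP, 2.27 for ADH1C and 0.784 for CHST4. In the same order, RepSox alone gave 18.1, 26.65, 9.1 and 12.3 CPM, and it gave 35.75 CPM for CEACAM6. CEACAM5, CEACAM6 and CEACAM7 are close copies of each other, so reads may have been split between them.

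The last of these genes was MIR205HG, the host transcript of the microRNA miR-205. MIR205HG stood at 4.82, 5.65 and 6.54 CPM with DOX and RepSox, against 1.48, 2.52 and 2.4 CPM in untreated cells, and at 0.658 ± 0.16 CPM with DOX alone. RepSox alone gave 5.64 ± 0.8 CPM. The libraries with both agents were all above the untreated ones, as the ranking required, by 2.66-fold (adjusted p = 2.86e-05). MicroRNAs of the miR-200 family and miR-205 are known to act on ZEB1 mRNA, and ZEB1 is known to repress their genes. The mature microRNA was not measured in these libraries. Its sequence, which lies in this host transcript at chr1:209432166-209432187 on the plus strand (RefSeq, GRCh38.p14), is shown with the seed, bases 2 to 8, in capitals.
hsa-miR-205-5p: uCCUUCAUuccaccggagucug

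Under the same limits of level, call and overlap, the largest fall was in SULT2B1, a sulfotransferase that conjugates cholesterol and other sterols (chr19:48552075-48599425, plus strand, GRCh38). SULT2B1 stood at 2.42, 1.72 and 2.31 CPM with DOX and RepSox, against 25.7, 23.1 and 24.1 CPM in untreated cells. All 3 libraries with both agents were below the untreated ones, as the ranking required, by 11.3-fold (log2 -3.50, SE 0.14, adjusted p = 1.24e-11). SULT2B1 was low with each treatment alone as well, at 3.52 ± 0.57 CPM with RepSox alone and 3.7 ± 0.47 CPM with DOX alone. The level with both agents was lower than with RepSox alone (log2 -0.71, 95% interval -1.04 to -0.39, adjusted p = 0.0487). That call was lost in 4 of the 6 fits that left out 1 library of these groups, with adjusted p up to 0.319 (without replicate 2 of DOX with RepSox). Of the 24 largest changes, SULT2B1 was the only one called between DOX with RepSox and RepSox alone with all libraries, and without replicate 1 of DOX with RepSox CHST4, MAB21L4, LAT2, AQP3 and FAM83E were called as lower too. MAB21L4, LAT2, AQP3, FAM83E and CEACAM6 were called with DESeq2 or without a filter.

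EGR1, an immediate-early transcription factor switched on by growth factor signalling, stood at 7.27, 6.81 and 7.34 CPM with DOX and RepSox, against 32.6, 34.1 and 32.5 CPM in untreated cells. The groups did not overlap, which the ranking required, and the fall was 4.63-fold (adjusted p = 6.12e-11). RepSox alone gave 8.93 ± 0.93 CPM and DOX alone 22.5 ± 2.6 CPM. AQP3, a channel for water and glycerol and the most highly counted of the 12 largest falls, stood at 92.5, 71 and 64.7 CPM with both agents, against 336, 286 and 279 CPM in untreated cells. Replicate 1 was the highest of the libraries with both agents but lay well below the untreated range, and the fall was 3.95-fold (adjusted p = 9.44e-10). BMF, a pro-apoptotic BH3-only protein of the BCL2 family, had 2.64 ± 0.63 CPM with DOX and RepSox and 12.4 ± 0.89 CPM in untreated cells, a 4.71-fold fall, whereas DOX alone gave 69.3 ± 5.9 CPM. Another 3 of these genes were likewise lower with both agents than in untreated cells and higher with DOX alone. VSIR, which encodes the immune checkpoint protein VISTA, had 4.55 ± 0.12 CPM with both agents, 31.6 ± 1.9 CPM with DOX alone and 16.2 ± 1.1 CPM in untreated cells. CYP4F12, a cytochrome P450, had 1.5 ± 0.041 CPM with both agents, 14.5 ± 1.2 CPM with DOX alone and 6.25 ± 1.1 CPM in untreated cells. BAIAP3 had 5.44 ± 0.23 CPM with both agents, 27.1 ± 2.9 CPM with DOX alone and 19.4 ± 2 CPM in untreated cells. RepSox alone gave 1.98 CPM for BMF, 5.3 for VSIR, 1.46 for CYP4F12 and 5.77 for BAIAP3.

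The other 5 of the 12 largest falls had means below the untreated level in all groups that had an agent. PLA2G4F, a cytosolic phospholipase A2, had 1.18 ± 0.2 CPM with DOX and RepSox and 7.76 ± 0.84 CPM in untreated cells, a 6.6-fold fall. MAB21L4 had 1.23 ± 0.33 CPM with both agents and 6.87 ± 0.12 CPM in untreated cells. The adaptor LAT2 had 1.3 ± 0.26 CPM with both agents and 6.0 ± 0.41 CPM in untreated cells. FAM83E had 2.79 ± 0.81 CPM with both agents and 10.8 ± 0.89 CPM in untreated cells. The mucin MUC20 had 5.1 ± 0.38 CPM with both agents and 17.9 ± 0.38 CPM in untreated cells. With RepSox alone these 5 genes lay between 1.67 CPM for PLA2G4F and 6.39 CPM for MUC20, and with DOX alone between 0.175 CPM for MAB21L4 and 1.67 CPM for MUC20.

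**Figure D2:**
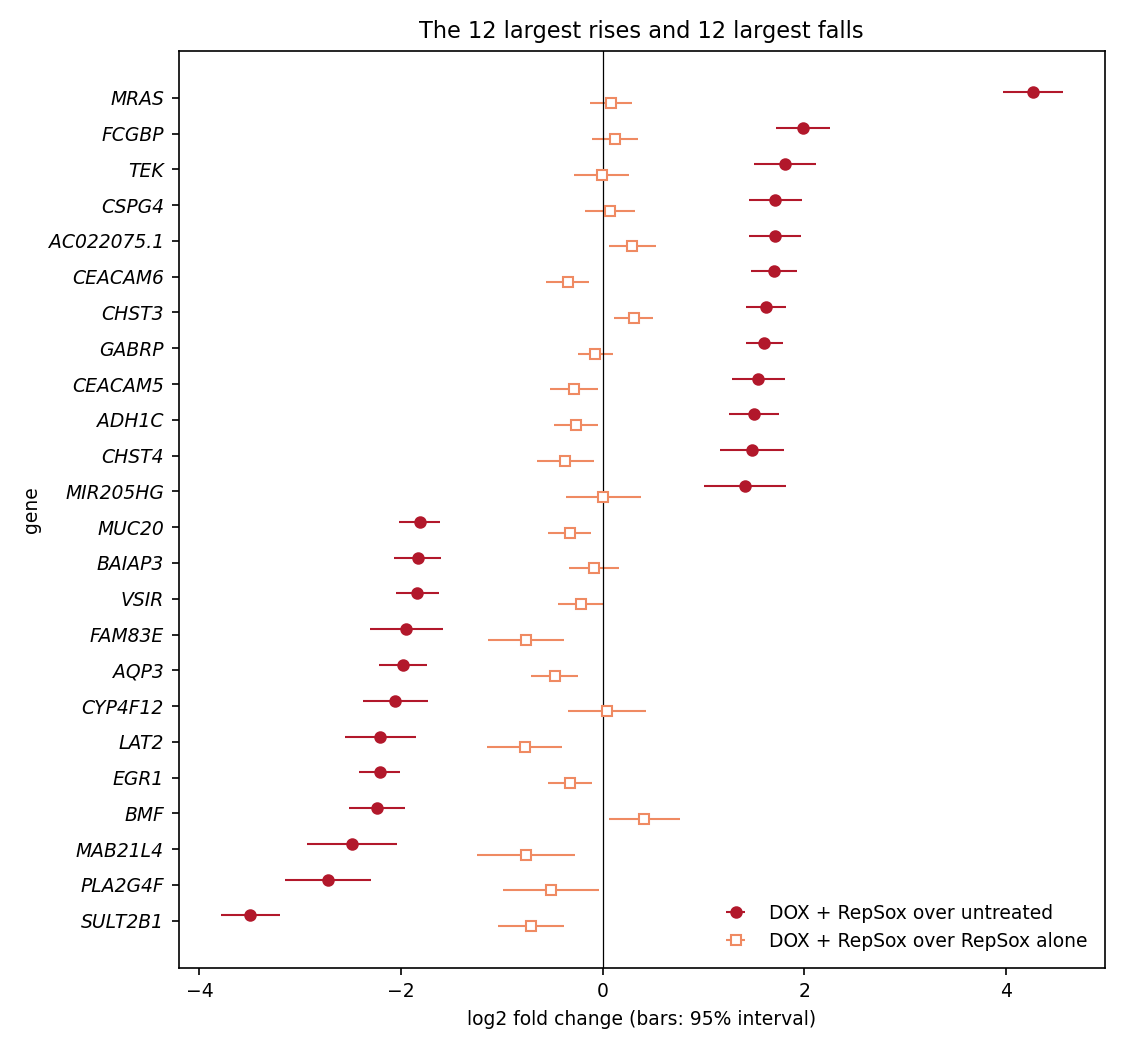
Log2 fold changes of the 24 genes with the largest changes, 12 up and 12 down, DOX with RepSox over untreated cells and over RepSox alone, with 95% intervals as bars. The values over untreated cells run from -3.50 for SULT2B1 to 4.27 for MRAS, while those over RepSox alone stay between -0.77 (LAT2) and 0.41 (BMF).

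In CPM, the largest gains were in abundant genes of the epithelial cytoskeleton, protein folding, the nucleolus and ion transport. KRT8, a keratin of simple epithelia, stood at 6505, 6681 and 6453 CPM with DOX and RepSox, against 5594, 5902 and 5166 CPM in untreated cells. Its partner KRT18 stood at 1960.0, 2645 and 2465 CPM, against 1642, 1910.0 and 1594 CPM in untreated cells. Neither keratin overlapped between groups, with rises of 1.18-fold for KRT8 (adjusted p = 0.00821) and 1.37-fold for KRT18 (adjusted p = 0.0013). Both have processed pseudogenes with which reads may have been shared. SLC12A2, the sodium-potassium-chloride cotransporter of the basolateral membrane, had 986 ± 55.6 CPM with both agents and 555 ± 35.2 CPM in untreated cells, a 1.78-fold rise. The nucleolar protein NCL rose 1.4-fold and the chaperone HSP90AB1 1.2-fold.

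The largest losses in CPM were mitochondrial transcripts and FTL, the light chain of ferritin. MT-ND4, a subunit of complex I encoded in mitochondrial DNA, stood at 3028, 3122 and 4100.0 CPM with DOX and RepSox, against 6044, 5166 and 6446 CPM in untreated cells, a 1.72-fold fall (adjusted p = 0.00676). Replicates spread widely for these transcripts, with 2710.0, 4799 and 4930.0 CPM for MT-ND4 in RepSox alone. Of the 13 mitochondrially encoded mRNAs, 7 fell and none rose, where 13.6% and 12.6% of all genes tested did. Their median log2 was -0.57, against 0.0016 over all genes tested. The 7 became 3 without replicate 2 of DOX with RepSox or without untreated replicate 3, 12 in a fit of the 6 libraries alone and 13 without a filter on low counts. MT-CO1, MT-CO3 and the mitochondrial ribosomal RNA MT-RNR2 fell by 1.55-fold, 1.4-fold and 1.45-fold, with adjusted p of 0.0148, 0.0348 and 0.0478. The calls of MT-CO1, MT-CO3 and MT-RNR2 were lost under 3, 5 and 8 of 13 alternative settings.

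The targets of TGF-β, the pathway that RepSox inhibits, shifted down on balance. Of 35 tested members of a list of 38 targets and components, 15 fell and 7 rose, with a median log2 of -0.26, where 13.6% of all genes tested fell and 12.6% rose. The 7 became 4 without untreated replicate 2. SMAD7, the inhibitory SMAD that TGF-β induces, stood at 11.3, 9.13 and 11 CPM with DOX and RepSox, against 20.4, 18.7 and 18.3 CPM in untreated cells, a 1.83-fold fall with no overlap (adjusted p = 2.23e-06). JUNB, an AP-1 subunit induced by TGF-β and by growth factors, stood at 14.2, 12.8 and 12 CPM with both agents, against 35.4, 37.7 and 35.8 CPM in untreated cells, and fell 2.79-fold (adjusted p = 2.77e-09). The growth factor PDGFB fell 1.97-fold. Not every target was lower. SKIL, a feedback repressor of SMAD signalling, stood at 63.1, 75.4 and 78.8 CPM with both agents, against 80.5, 78 and 91.3 CPM in untreated cells. The SKIL libraries overlapped and the difference was not called (log2 -0.20, adjusted p = 0.135). With DOX alone SKIL stood at 149.6 ± 21.2 CPM and SMAD7 at 23.9 ± 2.1 CPM.

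Among the 7 members that rose, WNT11, a secreted WNT ligand, stood at 61.1, 60.8 and 51.9 CPM with DOX and RepSox, against 24.9, 25.6 and 19.3 CPM in untreated cells. This was a 2.49-fold rise with no overlap (adjusted p = 8.61e-09), and RepSox alone gave 56.3 ± 0.73 CPM. LTBP1, which binds latent TGF-β in the matrix, had 2.74 ± 0.35 CPM with both agents and 1.24 ± 0.14 CPM in untreated cells, a 2.21-fold rise. The receptor gene TGFBR1 itself, which encodes the target of RepSox, and the ligand gene TGFB2 were also among those that rose. TGFB2 stood at 1.93 ± 0.098 CPM with both agents and 1.12 ± 0.43 CPM in untreated cells (adjusted p = 0.0233), and its call was lost when replicate 2 of DOX with RepSox or replicate 2 or 3 of the untreated cells was left out (adjusted p = 0.0713, 0.12 and 0.0616).

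Genes that answer to BMP, a branch of the same family that signals through other type I receptors, showed few calls: 2 of 11 tested members fell and 2 rose, shares near the 13.6% and 12.6% of all genes tested, and the median log2 was -0.42. ID1, an inhibitor of helix-loop-helix factors, stood at 18.3, 19.9 and 18.6 CPM with DOX and RepSox, against 42, 49.5 and 44.9 CPM in untreated cells, a 2.4-fold fall (adjusted p = 2.14e-08). Its relative ID2 stood at 49.4, 43.1 and 47.3 CPM with both agents, against 31.8, 35.1 and 33.4 CPM in untreated cells, a 1.39-fold rise (adjusted p = 0.000144). The groups did not overlap for either gene, and the relatives ID1 and ID2 differed in opposite directions. RepSox alone gave 17.9 CPM for ID1 and 57.3 CPM for ID2, and DOX alone 47.6 and 11.8 CPM. With all libraries neither gene was called against RepSox alone (adjusted p = 0.726 and 0.108). ID3 had 0.108 ± 0.094 CPM with both agents and 0.259 ± 0.16 CPM in untreated cells and was not called (adjusted p = 0.181). ATOH8 was near the floor, at 0.0809 ± 0.029 CPM with both agents and 0.203 ± 0.032 CPM in untreated cells (adjusted p = 0.082), against 10.1 ± 1.7 CPM with DOX alone.

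Targets of the aryl hydrocarbon receptor (AHR), a ligand-activated factor that induces drug-metabolising enzymes, split. Among 14 tested members 6 fell and 4 rose, where 13.6% and 12.6% of all genes tested did, and the median log2 was -0.16. The 4 became 2 without any 1 of the untreated libraries. CYP1B1, a cytochrome P450, stood at 14.2, 17 and 17.3 CPM with DOX and RepSox, against 37.9, 36 and 38.9 CPM in untreated cells, a 2.33-fold fall with no overlap (adjusted p = 3.04e-07). CYP1A1 was barely counted, at 0.248, 0.158 and 0 CPM with both agents, against 0.501, 0.554 and 0.442 CPM in untreated cells. Its fall was called at an adjusted p of 0.0346 but not when any 1 of 5 of the 6 libraries was left out. ALDH3A1, an aldehyde dehydrogenase, fell 2.01-fold and stood at 125 ± 6.8 CPM with DOX alone. RepSox alone gave 18.3 CPM for ALDH3A1 and 14.8 CPM for CYP1B1, against 19.4 and 16.2 CPM with both agents. None of the list was called against RepSox alone, and 1 was lower without replicate 1 of DOX with RepSox. The efflux pump ABCG2 rose 1.6-fold.

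Genes controlled by NRF2, the factor that drives antioxidant and detoxifying enzymes, were mostly lower. Among 24 tested members 14 fell and 1 rose (SLC7A11, the cystine transporter), where 13.6% and 12.6% of all genes tested did. The median log2 was -0.40. OSGIN1 stood at 2.09, 2.32 and 1.89 CPM with DOX and RepSox, against 7.29, 5.34 and 5.91 CPM in untreated cells, a 2.94-fold fall with no overlap (adjusted p = 3.3e-07). HMOX1, which degrades haem, stood at 6.58, 4.72 and 5.0 CPM with both agents, against 13.8, 12.2 and 13.2 CPM in untreated cells, and fell 2.41-fold (adjusted p = 2.21e-07). The aldo-keto reductases AKR1C3 and AKR1C1, which are close copies of each other, fell 1.63-fold and 1.62-fold, and NQO1, a quinone reductase and also an AHR target, 1.36-fold. FTL, a member of the same list, fell 1.63-fold. With DOX alone AKR1C3 stood at 92.2 ± 3.2 CPM, against 55.6 ± 5.4 CPM in untreated cells, and HMOX1 at 10.1 ± 0.49 CPM, against 13.1 ± 0.78 CPM in untreated cells. RepSox alone gave 32.3 ± 2.7 CPM for AKR1C3 and 6.14 ± 0.3 CPM for HMOX1, against 34.05 and 5.44 CPM with both agents. None of the list was called against RepSox alone, and 2 were lower without replicate 1 of DOX with RepSox.

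Epithelial genes were mostly below the untreated level, by small amounts. Of 53 members of an epithelial list, all tested, 38 were lower with DOX and RepSox than in untreated cells, 3 were higher (KRT8, KRT18 and ELF3) and 12 were not called. Over all genes tested 13.6% were lower and 12.6% higher. The list had a median log2 of -0.39 against 0.0016 over all genes. CDH1, which encodes E-cadherin, the adhesion protein of adherens junctions, stood at 353, 334 and 341 CPM with DOX and RepSox, against 457, 446 and 478 CPM in untreated cells. It fell 1.34-fold with no overlap (adjusted p = 1.1e-05), and stood at 376 ± 9.1 CPM with RepSox alone and 228 ± 5.5 CPM with DOX alone. EPCAM, an epithelial adhesion molecule, stood at 527, 554 and 551 CPM with both agents, against 654, 662 and 609 CPM in untreated cells, and fell 1.18-fold (adjusted p = 0.00544). ESRP1, a splicing factor of epithelial cells, stood at 260.1, 259 and 267 CPM with both agents, against 323, 335 and 332 CPM in untreated cells, and fell 1.26-fold (adjusted p = 0.000162). DOX alone gave 196 ± 10.0 CPM for EPCAM and 77.1 ± 3.8 CPM for ESRP1, both far lower. RepSox alone gave 592 ± 21.3 CPM for EPCAM and 289 ± 4.0 CPM for ESRP1. With all libraries, CDH1, EPCAM and ESRP1 were not called against RepSox alone (adjusted p = 0.286, 0.36 and 0.271). The mean log2 level of the list, centred on the untreated mean, was -0.246, -0.259 and -0.274 with RepSox alone. With both agents it was -0.44, -0.457 and -0.508. Compared with DOX alone, 43 of the 53 genes were higher with DOX and RepSox and 4 lower.

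S100A14 and TMPRSS4, the members of the list furthest below the untreated level, were also below RepSox alone. S100A14, a calcium-binding protein of epithelia (chr1:153614255-153616986, minus strand, GRCh38), stood at 14.2, 12.4 and 11.4 CPM with DOX and RepSox, against 44.1, 42.1 and 43.1 CPM in untreated cells. RepSox alone gave 29.8, 32 and 32.5 CPM and DOX alone 2.17, 1.74 and 1.85 CPM. The 4 groups did not overlap, and S100A14 with both agents was 3.41-fold below untreated cells (adjusted p = 2.4e-10) and 2.49-fold below RepSox alone (adjusted p = 1.37e-07). TMPRSS4, a membrane serine protease, stood at 38, 28.9 and 31.1 CPM with both agents, against 106, 105 and 102 CPM in untreated cells and 54.8, 49.8 and 55.6 CPM with RepSox alone, 3.19-fold below untreated cells and 1.63-fold below RepSox alone (adjusted p = 5.34e-10 and 0.000356). Over the list, 12 of 53 genes were lower with both agents than with RepSox alone and none was higher, where 0.383% of all genes tested were lower, and the median log2 was -0.14. Without replicate 1 of DOX with RepSox 20 were lower and 4 higher, and without its replicate 2, 7 were lower. Over all genes tested, those fits called 1670 of 17445, 663 of them higher, and 27 of 17396, 5 of them higher.

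**Figure D3:**
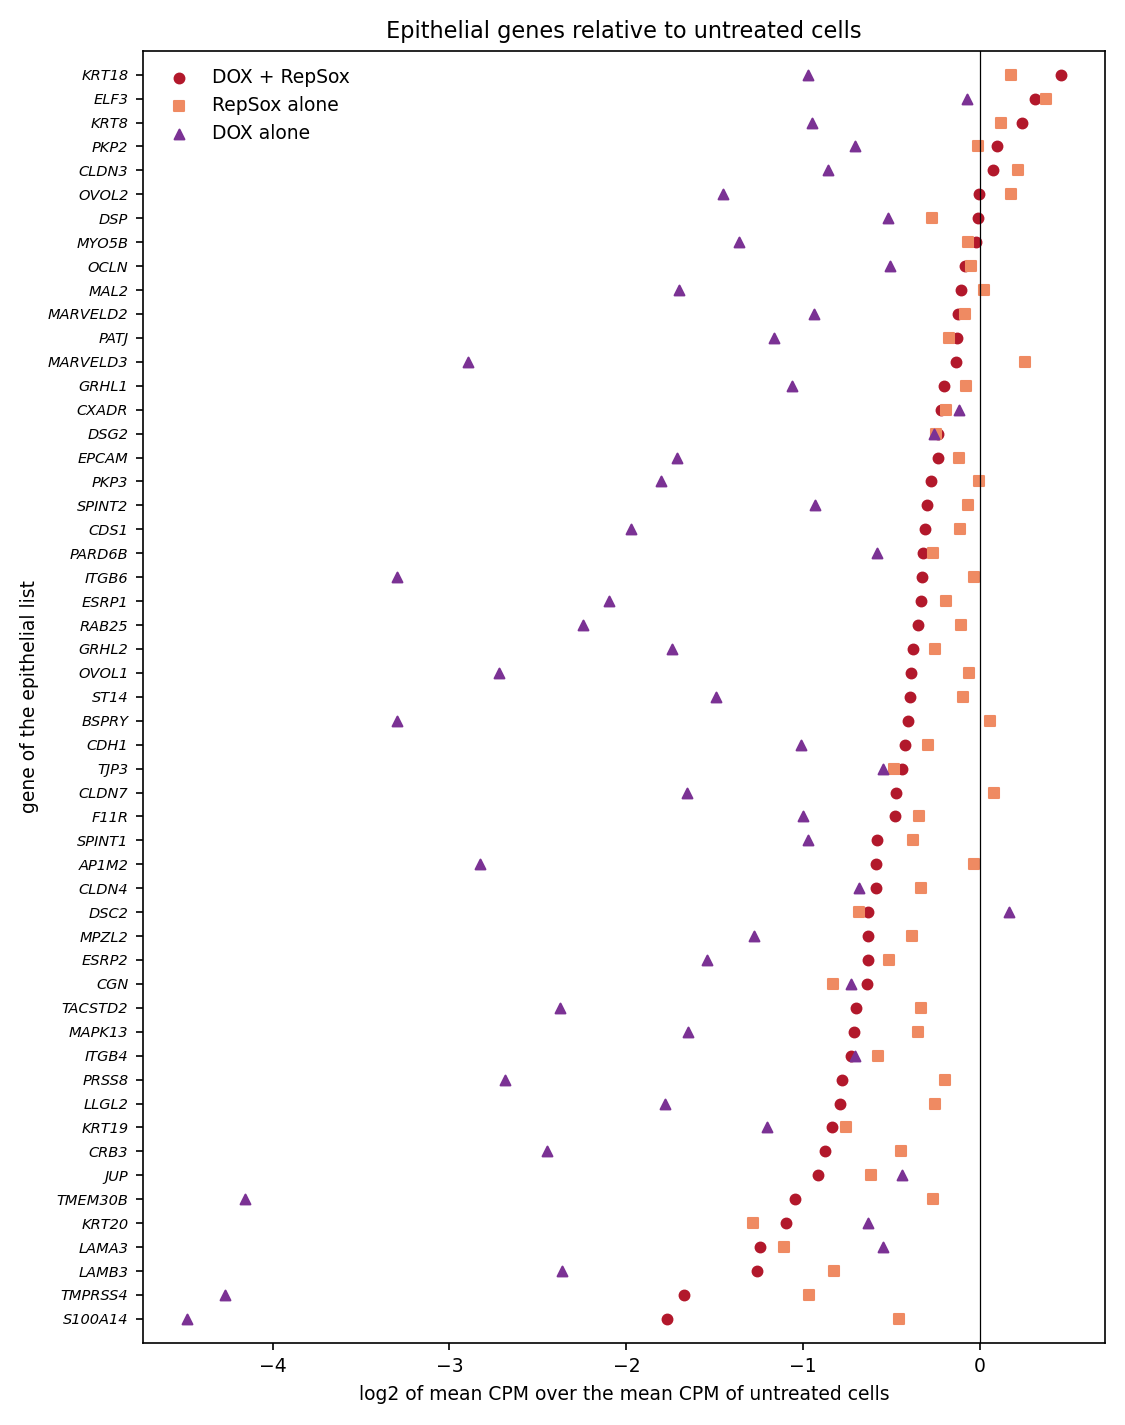
For each of the 53 epithelial genes, the log2 of its mean CPM over the mean in untreated cells, for DOX with RepSox, RepSox alone and DOX alone. Most genes with DOX and RepSox lie left of 0, and DOX alone lies further left for the 43 genes that were higher with both agents than with DOX alone.

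Of some other genes called between DOX with RepSox and RepSox alone, TMEM125, MUC1 and CLDN7 were picked after their values were seen. FGF19 came from the rule for named genes given below. TMEM125, a membrane protein, had 10.1 ± 1.3 CPM with DOX and RepSox, 23.2 ± 1.1 CPM with RepSox alone and 34.8 ± 2.1 CPM in untreated cells. MUC1, a membrane mucin, had 3.03 ± 0.081 CPM with both agents, 5.54 ± 0.32 CPM with RepSox alone and 5.3 ± 0.16 CPM in untreated cells. The tight-junction protein CLDN7 had 91.6 ± 9.3 CPM with both agents, 134 ± 0.67 CPM with RepSox alone and 127 ± 4.6 CPM in untreated cells. FGF19, a secreted growth factor, stood at 135, 115 and 116 CPM with DOX and RepSox, 174, 164 and 167 CPM with RepSox alone, 6.0, 7.73 and 7.83 CPM with DOX alone and 117, 115 and 111 CPM in untreated cells. FGF19 therefore overlapped with untreated cells (log2 0.09, adjusted p = 0.426) but was lower than with RepSox alone (log2 -0.47, adjusted p = 0.00588). The call of FGF19 was lost without replicate 2 of DOX with RepSox (adjusted p = 0.0684) and without replicate 1 of RepSox alone (adjusted p = 0.053).

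ZEB1 is known to bind E-box letters of the form CAGGTG and CAGGTA, so promoters of 3 of these genes are shown, from 250 bases before to 50 bases after the start of the RefSeq gene (GRCh38.p14). The capitals mark each match to either motif on either strand. The motifs share their first 5 letters and cannot match at the same place. S100A14 (chr1:153616276-153616575, minus strand) held 3 matches, which begin 33 and 14 bases before the start and at base 29 counted from the start. By the GENCODE 29 coordinates given above, S100A14 starts upstream, at base 153616986, so this whole window lies inside the gene there. MUC1 (chr1:155192866-155193165, minus strand) held 2, which begin 82 and 75 bases before the start and read CACCTG because they lie on the other strand. TMEM125 (chr1:43269733-43270032, plus strand) held none in this window.
S100A14: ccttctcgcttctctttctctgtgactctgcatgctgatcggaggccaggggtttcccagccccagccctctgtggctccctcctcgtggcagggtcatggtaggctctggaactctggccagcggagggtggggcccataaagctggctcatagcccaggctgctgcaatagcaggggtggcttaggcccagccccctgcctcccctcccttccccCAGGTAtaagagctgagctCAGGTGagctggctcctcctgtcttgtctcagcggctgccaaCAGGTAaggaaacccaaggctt
MUC1: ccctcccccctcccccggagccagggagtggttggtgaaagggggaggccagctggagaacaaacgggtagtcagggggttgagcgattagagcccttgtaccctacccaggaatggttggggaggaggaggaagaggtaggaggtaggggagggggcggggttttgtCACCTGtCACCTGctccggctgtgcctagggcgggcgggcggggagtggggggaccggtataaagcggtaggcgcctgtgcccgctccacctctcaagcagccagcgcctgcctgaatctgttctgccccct
TMEM125: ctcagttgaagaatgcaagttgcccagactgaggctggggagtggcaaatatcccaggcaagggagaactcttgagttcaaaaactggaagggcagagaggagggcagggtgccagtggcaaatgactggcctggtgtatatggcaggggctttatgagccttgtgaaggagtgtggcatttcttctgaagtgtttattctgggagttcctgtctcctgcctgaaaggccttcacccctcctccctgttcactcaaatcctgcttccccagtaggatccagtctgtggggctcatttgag
Either motif was present in 28% of the 27305 promoters of the same length. A match describes letters and does not show that ZEB1 was bound. Only 45 of the 65 genes that were lower than with RepSox alone had an entry in the promoter table, under 80%, so no share over those genes is given.

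Genes of the mesenchymal state showed little change. Of 22 tested members of a list of 34, 4 fell and 2 rose, where 13.6% and 12.6% of all genes tested did, and the median log2 was -0.01. The 4 became 2 without replicate 3 of DOX with RepSox. The 2 became 0 without its replicate 2 and 1 without its replicate 3 or untreated replicate 2 or 3. VIM, which encodes vimentin, had 0.606, 0.475 and 0.425 CPM with DOX and RepSox, against 0.334, 0.166 and 0.442 CPM in untreated cells, levels under 1 CPM that overlapped and were not called (adjusted p = 0.278). LGALS1, a galectin, had 8.36 ± 0.75 CPM with both agents and 13.6 ± 2.2 CPM in untreated cells, a 1.62-fold fall, against 48.8 ± 6.1 CPM with DOX alone. NNMT, a methyltransferase of nicotinamide, fell 1.69-fold. THBS1 and MMP14 were called as higher, at 1.19-fold and 1.26-fold (adjusted p = 0.00969 and 0.0495). The call of MMP14 was lost under 8 of the 13 alternatives. Of 12 EMT transcription factors 5 were tested, and ZEB1 was the only one called with all libraries and TMM scaling. Under 6 of 13 alternatives 2 factors were called as higher, and without untreated replicate 3 there was 1 called as lower.

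Genes of the contact with the basement membrane were lower. Of 17 tested integrin and laminin genes, 10 fell and 1 rose (LAMB1), where 13.6% and 12.6% of all genes did. Their median log2 was -0.32. LAMB3 and LAMA3 encode chains of a laminin to which epithelial cells attach. LAMB3 stood at 51.1, 47.5 and 46.7 CPM with DOX and RepSox, against 121, 119 and 108 CPM in untreated cells, a 2.4-fold fall (adjusted p = 9.22e-10). LAMA3 stood at 10.5, 14.6 and 11.4 CPM with both agents, against 28.2, 27.8 and 30.4 CPM in untreated cells, a 2.37-fold fall (adjusted p = 1.72e-07). No library with both agents reached the untreated range for either gene. Against RepSox alone LAMB3 was lower (log2 -0.43, adjusted p = 0.00588), and LAMA3 was not called (log2 -0.14, adjusted p = 0.608). The call of LAMB3 was lost without replicate 2 of DOX with RepSox (adjusted p = 0.0587) and without replicate 1 of RepSox alone (adjusted p = 0.0508). The receptor subunits ITGB4 and ITGA3, which bind this laminin, fell 1.66-fold and 1.64-fold.

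Intestinal differentiation genes moved both ways, with 13 of 40 tested members higher and 6 lower, where 12.6% and 13.6% of all genes were. Their median log2 was 0.14. PIGR, the receptor that carries immunoglobulin A across the epithelium (chr1:206928518-206946466, minus strand, GRCh38), stood at 4.68, 3.11 and 2.5 CPM with DOX and RepSox, against 0.334, 0.166 and 0.166 CPM in untreated cells. It was almost uncounted in untreated cells and 15.2-fold higher with both agents (adjusted p = 8.6e-08), and RepSox alone gave 3.83 ± 0.2 CPM. MUC5B, a gel-forming mucin, had 1.64 ± 0.057 CPM with both agents and 0.462 ± 0.17 CPM in untreated cells, a 3.52-fold rise. CEACAM7 stood at 2.04, 1.74 and 1.65 CPM with both agents, against 0.334, 0 and 0.0552 CPM in untreated cells, a fitted 13.7-fold rise from very low counts (adjusted p = 2.1e-05). In the CEACAM family 5 of 6 tested genes rose and none fell, where 12.6% and 13.6% of all genes did, and the median log2 was 1.62. KRT20, a keratin of mature enterocytes, stood at 62.6, 79.1 and 76.4 CPM with DOX and RepSox, against 161, 151 and 156 CPM in untreated cells, and fell 2.14-fold (adjusted p = 1.36e-08). VIL1, the actin bundler of the brush border, fell 1.83-fold. PHGR1, picked after its values were seen, had 6.28 ± 1.6 CPM with both agents and 15.2 ± 1.5 CPM in untreated cells.

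Targets of WNT and genes of intestinal stem cells also moved both ways. Among 21 tested members 9 were up and 4 down, where 12.6% and 13.6% of all genes were, and the median log2 was 0.15. LGR5, a receptor for R-spondins that marks intestinal stem cells (chr12:71439770-71586310, plus strand, GRCh38), stood at 88.2, 93.7 and 96.2 CPM with DOX and RepSox, against 40.5, 36.4 and 40.9 CPM in untreated cells. It had 52, 57 and 52.8 CPM with RepSox alone and 79.5, 70.9 and 80.5 CPM with DOX alone. The level with both agents was above every other HT-29 library, 2.36-fold above untreated cells (adjusted p = 1.01e-09), 1.72-fold above RepSox alone (adjusted p = 4.94e-06) and 1.21-fold above DOX alone (adjusted p = 0.00311). PROM1, a surface protein used to mark stem cells, stood at 209.5, 199 and 207 CPM with both agents, against 91, 86.2 and 95.5 CPM in untreated cells, a 2.26-fold rise. MYC, a transcription factor of cell growth, stood at 364, 366 and 369 CPM with both agents, against 204, 209 and 199.9 CPM in untreated cells, a 1.79-fold rise (adjusted p = 3.08e-08). AXIN2, a feedback inhibitor that WNT induces, stood at 32.5, 30.3 and 33.5 CPM with DOX and RepSox, against 61.8, 53.3 and 57.2 CPM in untreated cells, a 1.79-fold fall (adjusted p = 6.93e-08). The WNT antagonist DKK1 fell 1.73-fold. Neither LGR5, PROM1, MYC, AXIN2 nor DKK1 overlapped between the groups. RepSox alone gave 187 to 193 CPM for PROM1, 368.5 to 413 for MYC, 33.7 to 35.9 for AXIN2 and 10.3 to 11.3 for DKK1. DOX alone gave 77.9 to 97.4 CPM for PROM1, 109 to 129 for MYC, 115 to 126 for AXIN2 and 26.8 to 28.4 for DKK1. With all libraries LGR5 was the only member of the list called against RepSox alone. Without replicate 1 of DOX with RepSox 3 were higher, where 663 of 17445 genes tested were.

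**Figure D4:**
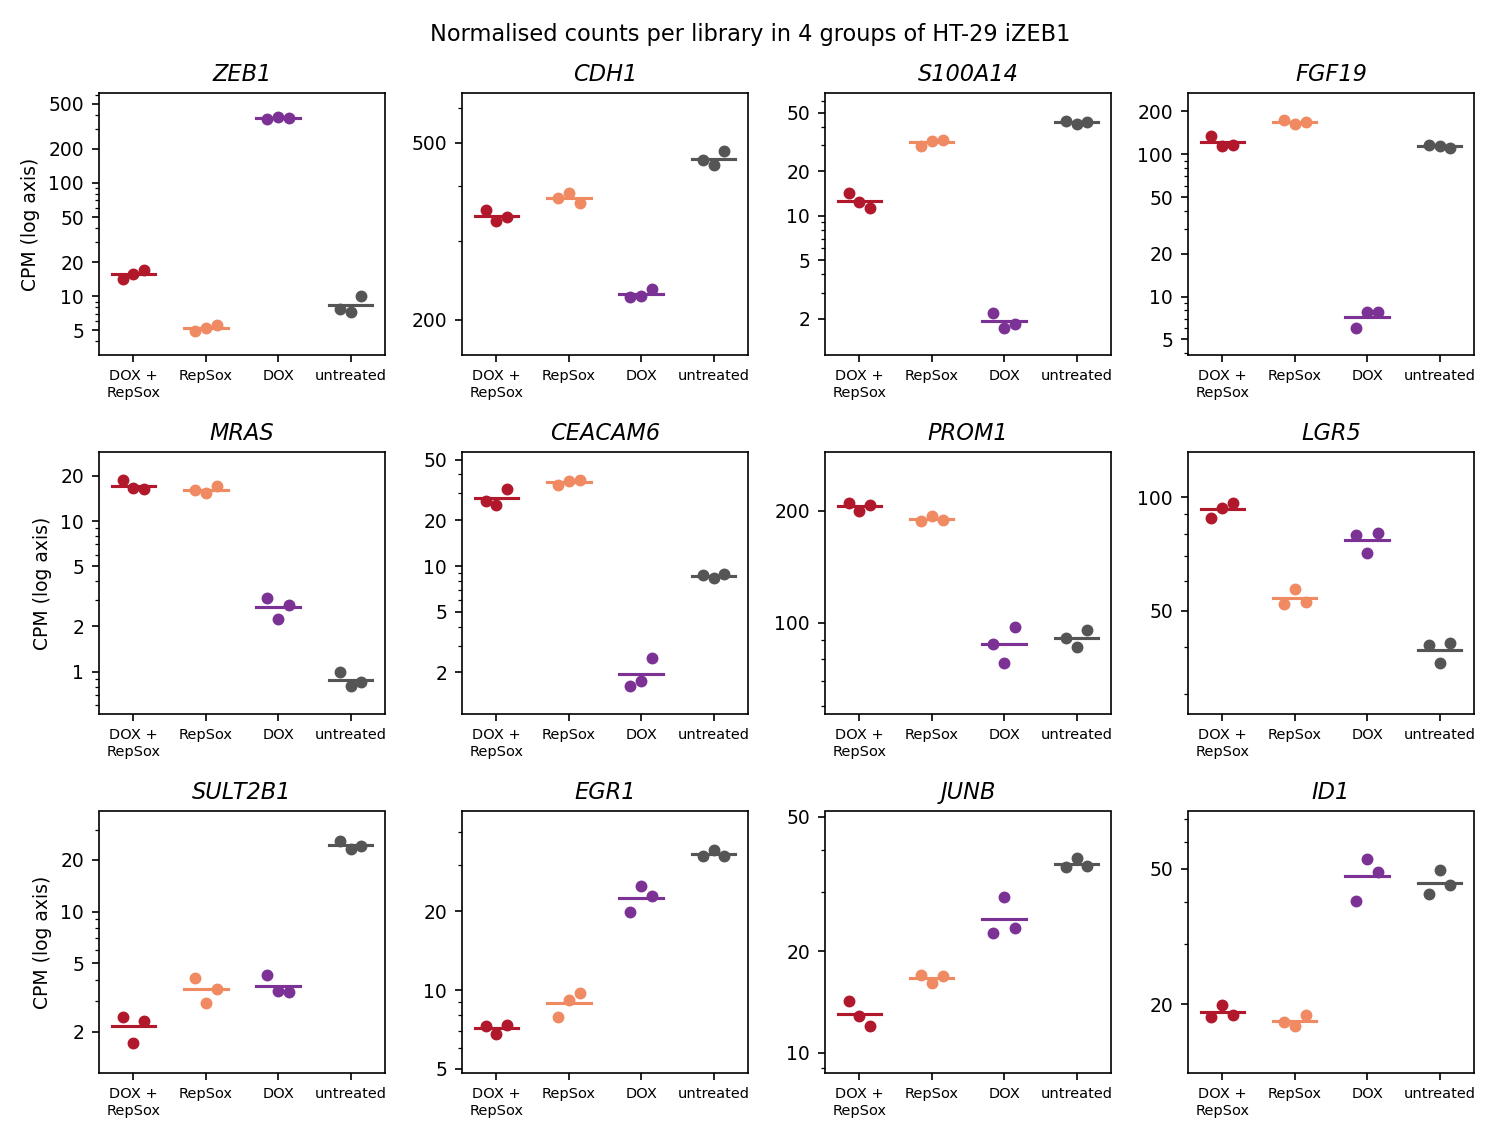
CPM on a log axis in every library of the 4 HT-29 groups for 12 genes, each point 1 library and each bar the mean of 3. ZEB1 is highest with DOX alone, MRAS is high in both groups with RepSox, S100A14 and CDH1 lie below the untreated level with both agents, and LGR5 is highest with both agents at 92.7 CPM.

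Readouts of ERK signalling leaned lower, with 10 of 29 tested members down and 4 up, where 13.6% and 12.6% of all genes were. Their median log2 was -0.22. The 4 became 2 without untreated replicate 1. Beside EGR1, the immediate-early gene IER2 fell 1.72-fold. Among ligands and receptors of the EGF and FGF families, 7 of 16 tested fell and 3 rose, with a median log2 of -0.26, where 13.6% of all genes tested fell and 12.6% rose. The 7 became 4 without replicate 2 of DOX with RepSox or without untreated replicate 3. The ligand TGFA had 59.1 ± 1.8 CPM with both agents and 85.2 ± 5.6 CPM in untreated cells, a 1.44-fold fall, whereas the ligand AREG had 95.5 ± 10.9 CPM with both agents and 63.6 ± 0.14 CPM in untreated cells, a 1.5-fold rise. The receptor FGFR2 rose 1.55-fold.

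Proliferation genes were largely at the untreated level: 38 of 48 cell-cycle genes were not called, 6 rose and 4 fell, near the 12.6% and 13.6% of all genes tested, with a median log2 of 0.01. The 6 became 11 without replicate 1 of DOX with RepSox and 3 without its replicate 2 or untreated replicate 1. RRM2, a subunit of ribonucleotide reductase, had 220.2 ± 5.7 CPM with DOX and RepSox and 331 ± 0.93 CPM in untreated cells, a 1.5-fold fall. CCNE2, a cyclin of S-phase entry, fell 1.53-fold. The 6 that rose did so by up to 1.25-fold (RFC3, part of the replication clamp loader). In a list of inhibitors of cyclin-dependent kinases with G1 cyclins and kinases, 6 of 16 tested members fell and 1 rose. Over all genes 13.6% fell and 12.6% rose. The median log2 of this list was 0.02. CDKN1A, which encodes p21, stood at 1.82, 1.95 and 2.02 CPM with DOX and RepSox, against 5.34, 4.4 and 5.22 CPM in untreated cells, a 2.58-fold fall (adjusted p = 4.63e-05). CDKN2C and CDKN2D fell 1.72-fold and 1.71-fold, and CDKN1C rose 1.49-fold. Among p53 targets 8 of 24 fell and 4 rose, where 13.6% and 12.6% of all genes did, with a median log2 of -0.17. The 8 became 5 without untreated replicate 1, and the 4 became 2 without replicate 2 of DOX with RepSox or any 1 untreated library. BTG2, an antiproliferative gene of this list, stood at 81.4, 78.2 and 80.8 CPM with both agents, against 43.1, 43.5 and 43.1 CPM in untreated cells, a 1.85-fold rise. HT-29 carries mutant p53, so this list is a set of genes and not a measure of p53 activity. In the BCL2 family 5 of 14 fell and none rose, where 13.6% of all genes fell, and 9 fell without replicate 1 of DOX with RepSox. Among the 5 were BCL2L1, which encodes the survival protein BCL-XL, down 1.3-fold and MCL1 down 1.16-fold.

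In metabolism, targets of ATF4, the factor of the amino-acid response, were higher. Among 33 tested 13 rose and 2 fell, where 12.6% and 13.6% of all genes did, and the median log2 was 0.16. The 2 became 1 without replicate 2 or 3 of DOX with RepSox or untreated replicate 1 or 3. The first enzyme of serine synthesis, PHGDH, stood at 99.6, 97.8 and 94.7 CPM with DOX and RepSox, against 60.2, 67.6 and 55.8 CPM in untreated cells, a 1.59-fold rise (adjusted p = 1.02e-05). The next enzyme, PSAT1, stood at 248, 239 and 246 CPM with both agents, against 166, 156 and 169 CPM in untreated cells, a 1.49-fold rise (adjusted p = 6.59e-07). CTH, which makes cysteine, rose 1.81-fold. All 3 were without overlap, and none was called against RepSox alone. Among sterol and fatty acid synthesis genes 11 of 33 fell and 5 rose, where 13.6% and 12.6% of all genes did. Their median log2 was -0.09, and 3 rose without untreated replicate 1. The lipid carrier STARD4 fell 1.55-fold. Against RepSox alone 1 gene of this list was lower with both agents, and 15 were without replicate 1 of DOX with RepSox. That fit called 1670 of 17445 genes tested, 663 of them higher. Of the hypoxia and glycolysis genes 6 of 29 fell and 5 rose, where 13.6% and 12.6% of all genes did. The 5 became 3 without untreated replicate 1 or 2. The glucose carrier SLC2A1 had 299 ± 18.8 CPM with both agents and 484 ± 34.0 CPM in untreated cells, a 1.62-fold fall, and the lactate carrier SLC16A3 fell 1.74-fold. The unfolded protein response list had 2 of 21 higher and 1 lower, where 12.6% and 13.6% of all genes were. The 2 became 1 without replicate 2 of DOX with RepSox or untreated replicate 1 or 2, and the 1 became 2 without replicate 1 of DOX with RepSox.

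Interferon-stimulated genes were lower on balance, with 13 of 40 down and none up, where 13.6% and 12.6% of all genes were. Their median log2 was -0.33. RSAD2, an antiviral enzyme, fell 2.0-fold, IRF9, part of the interferon-activated factor, 1.94-fold and IRF7 1.77-fold. This result depended on the libraries compared. The mean log2 level of the list, centred on the untreated mean, was -0.258, -0.423 and -0.365 with DOX and RepSox and -0.231, -0.021 and 0.252 in untreated cells, so the lowest untreated library lay next to the highest library with both agents. Without untreated replicate 3 the number that fell was 5, in a fit of the 6 libraries alone it was 23, and without a filter on low counts 29. For NF-kB and cytokine genes 4 of 19 fell and 2 rose, near the 13.6% and 12.6% of all genes. The 4 became 2 without replicate 3 of DOX with RepSox or untreated replicate 2, and the 2 became 1 without replicate 3 of DOX with RepSox. Among them were NFKBIZ down 1.74-fold and the chemokine CXCL1 up 1.65-fold. Among YAP/TAZ targets 6 of 18 fell and 4 rose, where 13.6% and 12.6% of all genes did. MYOF was down 1.76-fold, CCN2 down 1.6-fold and FJX1 up 1.93-fold. Of the Notch genes 3 of 16 rose and 2 fell, near the 12.6% and 13.6% of all genes. Without replicate 1 of DOX with RepSox 1 rose and 5 fell, and without its replicate 2 or 3 1 fell. Among the called genes were the ligand DLL4 down 2.25-fold and the target NRARP up 1.38-fold. Of 16 replication-dependent histone genes tested 2 fell, near the 13.6% of all genes, and none rose. The 2 became 1 without replicate 2 of DOX with RepSox or untreated replicate 1 or 3.

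**Figure D5:**
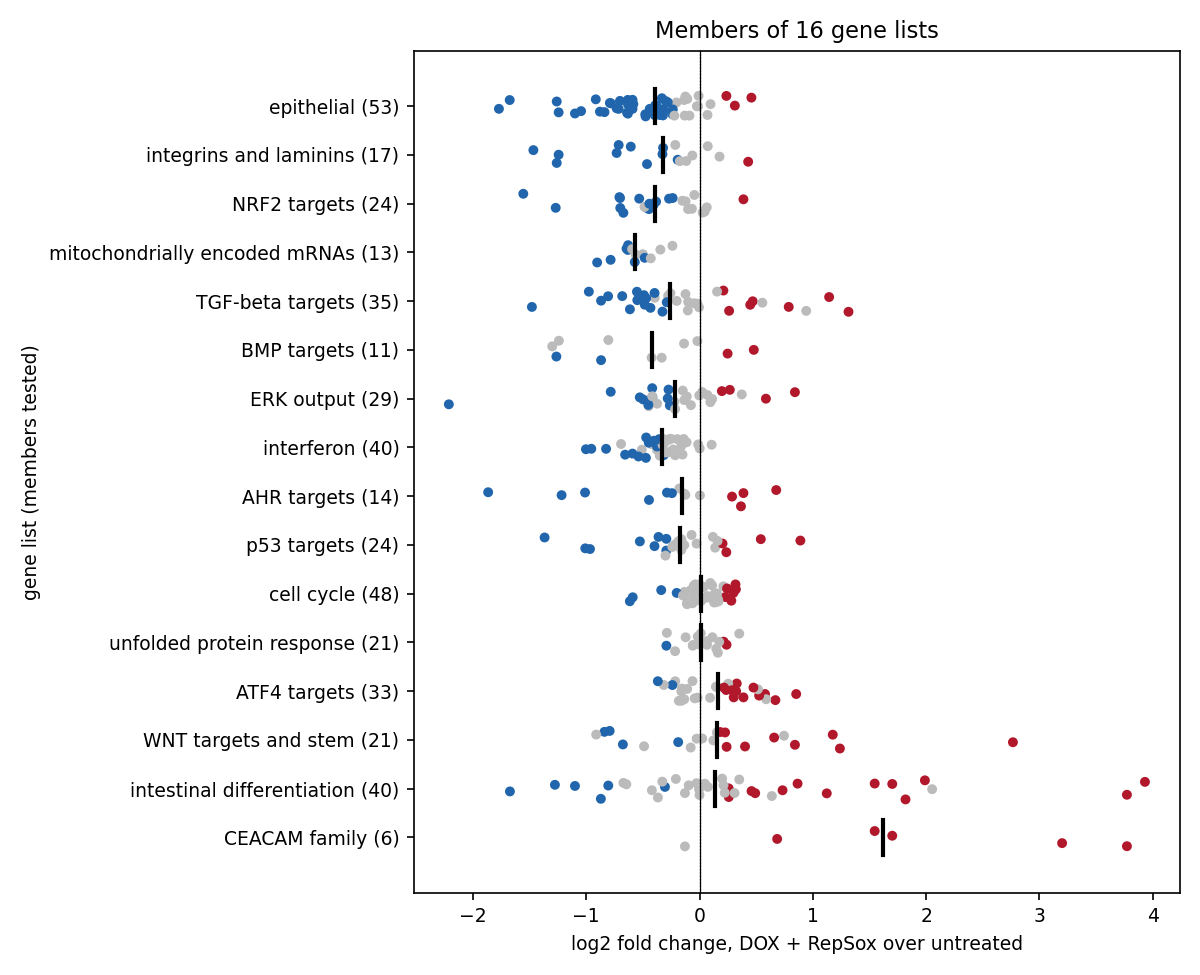
Log2 fold change of DOX with RepSox over untreated cells for each tested member of 16 gene lists, with called members in colour and the list median as a black bar. The CEACAM family has the highest median (1.62), the mitochondrially encoded mRNAs the lowest (-0.57), and the cell-cycle list stays at 0.01; the dotted line is the median of all genes tested.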

How the data were processed

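RNA was extracted from cells in 6-well plates and sequenced on a BGISEQ-500, per the labels' protocols. The authors deposited raw counts of reads per gene, not normalised, in a table of 60642 gene symbols. The submitters' processing notes name HISAT2 2.2.0 and featureCounts 2.0.0 on GRCh38.p13, as well as FastQC 0.11.9 and DESeq2 1.34.0. Settings, strandedness and annotation release were not given in the sources used here, so antisense and near-identical genes may share reads.

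Groups came from the labels. The deposited counts of the 12 HT-29 libraries (36.5 to 39.8 M each) were fitted by group with edgeR 4.0.16 (R 4.3.3): TMM scaling, filterByExpr with a minimum count of 10 (16978 genes, 99.93% to 99.95% of counts), glmQLFit, glmQLFTest, glmTreat at 1.5-fold, with p-values adjusted by Benjamini-Hochberg across the tested genes. The spread within groups exceeded counting error (chi-square divided by degrees of freedom, 5.97 to 42.6) and each was counted as a library. Standard errors and intervals cover the spread between these libraries only. The spread between replicates was 7.82% (biological coefficient of variation). Scripts were tested on simulated data.

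The comparison, the 31 gene lists and the rule for named genes were chosen with earlier results of these data known. The rule takes a set of ZEB1, TGF-β, BMP, AHR and epithelial genes, the 12 largest rises and 12 largest falls among called, non-overlapping genes that reach 5 CPM in the higher group, the 5 largest gains and losses in CPM, and up to 5 called members of each list with at least 1 CPM. Some genes that the rule takes are not reported here. Genes named outside it, apart from cell type markers, are marked as picked after their values were seen. TGFBR1, ELF3 and LAMB1, named only as called members of their lists, also lie outside it and carry no such mark. Lists overlap, so a gene can be counted in more than 1 of them. Examples are MYC, TGFA, AREG, NQO1, SLC7A11, LAMA3, LAMB3, ITGB4, SMAD7, TAGLN, CCN2, TGFB2, CDKN1A, KRT20, CEACAM5, CEACAM6 and CEACAM7. Coordinates were matched by symbol to GENCODE 29 on GRCh38, and promoters and miR-205 to RefSeq tables of GRCh38.p14. Alternatives were RLE and library-total scaling, no filter, a filter of 1 CPM in 3 libraries, the 6 libraries alone, a replicate block, DESeq2 1.42.0 and leaving out each library.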

Additional observations from a re-analysis of the deposited data

How the results depend on the processing

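The count of genes called against untreated cells stayed within 1.5 times of 4454 under every alternative run (3306 to 4916 when 1 library was left out, 4651 with DESeq2). The count at least 2-fold, 523, was 329 with a filter of 1 CPM in 3 libraries, which tests fewer genes, and 450 to 600 when 1 library was left out. The count past 1.5-fold ran from 240 to 345 when 1 library was left out. Against DOX alone the count was 7869 to 8730 when 1 library was left out; with library totals alone 43.7% of the calls were higher, against 51.3% with TMM scaling. Against RepSox alone the 81 genes became 584 without a filter and 294 with DESeq2, and 27 to 1670 when 1 library was left out; the cause was not tested. Same-numbered libraries of DOX with RepSox and untreated cells deviated with correlations of 0.057, -0.019 and 0.067, so no shared effect of the replicate number was seen. Values near 0 cannot show that same-numbered libraries were handled apart. With a replicate block the counts were 4574 called, 514 at least 2-fold, 319 past 1.5-fold, 109 against RepSox alone and 8948 against DOX alone. No called gene among those named changed direction, and 19 lost the call under at least 1 of 13 alternatives, among them CYP1A1, MMP14, BAD, TAGLN and MT-RNR2. Genes under about 1 CPM rest on few counts, and their fold changes are imprecise.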

Other observations

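Beside ZEB1 and LGR5, 14 genes were called as higher with DOX and RepSox than with RepSox alone, and some of them, picked here after their values were seen, have known roles. The 16 higher genes with all libraries became 663 without replicate 1 of DOX with RepSox and 5 without its replicate 2 or 3. ABCC4, a pump that exports cyclic nucleotides and drugs, had 240.4 ± 6.8 CPM with DOX and RepSox, 169 ± 7.6 CPM with RepSox alone, 251 ± 9.4 CPM with DOX alone and 123 ± 7.9 CPM in untreated cells (adjusted p = 0.000271 against RepSox alone, edgeR's quasi-likelihood test). FYN, a kinase of the SRC family, had 16.3 ± 0.74 CPM with both agents, 12.2 ± 1.1 CPM with RepSox alone, 23.4 ± 1.6 CPM with DOX alone and 8.74 ± 0.35 CPM in untreated cells. SYNE1, a protein that links the nucleus to the cytoskeleton, had 1.85 ± 0.41 CPM with both agents, 0.897 ± 0.23 CPM with RepSox alone, 8.84 ± 0.37 CPM with DOX alone and 1.99 ± 0.24 CPM in untreated cells. CCDC88A, an actin-binding protein of migrating cells, had 2.53 ± 0.12 CPM with both agents, 1.29 ± 0.27 CPM with RepSox alone, 8.72 ± 0.98 CPM with DOX alone and 1.76 ± 0.39 CPM in untreated cells. RASSF10 had 31.9 ± 1.1 CPM with both agents, 25.1 ± 0.59 CPM with RepSox alone, 41 ± 3.3 CPM with DOX alone and 12.8 ± 0.54 CPM in untreated cells. Among the 16 are also EEF1A1P6, KRT8P33, RPL9P7, AC244669.1 and PDPK2P, which the annotation lists as pseudogenes and whose reads may come from their parent genes.

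Among the 65 lower genes, FUT3 and FUT1, which add fucose to cell-surface sugars, had 0.911 ± 0.18 CPM and 4.85 ± 0.19 CPM with DOX and RepSox, 2.34 ± 0.011 CPM and 8.68 ± 0.78 CPM with RepSox alone, 0.182 ± 0.028 CPM and 1.55 ± 0.26 CPM with DOX alone, and 2.43 ± 0.075 CPM and 10.2 ± 1.1 CPM in untreated cells. NECTIN4, an adhesion molecule, had 3.01 ± 0.37 CPM with both agents, 5.03 ± 0.47 CPM with RepSox alone, 0.579 ± 0.087 CPM with DOX alone and 6.88 ± 0.65 CPM in untreated cells. BMP2, a ligand of the BMP branch, had 9.95 ± 0.85 CPM with both agents, 13.7 ± 1.1 CPM with RepSox alone, 11.3 ± 0.98 CPM with DOX alone and 10.7 ± 0.49 CPM in untreated cells.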
